A study of Mus musculus with 2 samples.

Results

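Histone genes fall into 2 kinds, and both were read here in the RNA of 1 library of hair follicle stem cells in early growth. The 74 genes described are 67 genes of the mouse histone clusters, named Hist1 to Hist4, and 7 histone variants encoded elsewhere, of 42392 gene IDs in the deposited table. They were chosen by name: every gene called Hist1h to Hist4h in the gene name table, plus H2afz, H2afx, H2afy, H2afv, H3f3a, H3f3b and H1f0. The deposited table carries newer symbols, so 3 members matched by symbol as written and 71 by gene ID. For example, Hist1h1c is listed there as H1f2 and Hist1h2bc as H2bc4. A further 3 cluster genes of the name table had no matching ID and were not analysed here. Of the 67 cluster genes, RefSeq types 64 as protein-coding, and the other 3, Hist1h2al, Hist1h2aj and Hist3h2bb-ps, as pseudogenes.

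The library came from female mice of genotype K15-CrePGR; Shh+/-. Their transgene puts a hormone-dependent Cre recombinase under the promoter of keratin 15, which is active in bulge cells, and they lack 1 of the copies of Shh. RU486, which switches that recombinase on, was given for 8 days, and the title calls the sample a control in anagen II-III, the start of the hair growth phase. The other sample of the series, in telogen, shares genotype and treatment and was not analysed here, since no column could be tied to it alone. The cells were sorted as CD34 positive with high integrin alpha 6. Krt15, the bulge keratin, stood at 3364 TPM and Cd34 at 132 TPM, against 0.264 TPM for the leukocyte gene Ptprc and 2.01 TPM for the endothelial gene Pecam1. The fibroblast gene Pdgfra, at 1.44 TPM, and the melanocyte gene Kit, at 1.17 TPM, were low too. Other marker genes were not low. Krt10 and Krt1, keratins of suprabasal cells, were at 138 and 33.0 TPM, and the globin genes Hbb-bs and Hba-a1 at 99.6 and 45.5 TPM. Dct, also a melanocyte gene, was at 11.7 TPM. The part of such cells in the histone levels was not tested. Ages and animal numbers were not stated. The unit, TPM (transcripts in 1000000), corrects a gene's reads for its length and scales them to the library. Levels can then be set beside each other between genes, for the RNA that the library captured. With 1 library, no value has an error, no test was possible, and the depth is unknown.

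Histones are the proteins around which DNA is wound, with a core of H2A, H2B, H3 and H4 and the linker H1 between cores. The cluster genes supply them during S phase, when new DNA needs new nucleosomes, and their transcripts have no introns and end in a stem-loop bound by SLBP in place of a poly(A) tail. The variant genes have ordinary polyadenylated transcripts made through the cell cycle, and H2afx makes both kinds. Some cluster genes can also make polyadenylated transcripts. Per the labels, libraries were made with an mRNA kit, a type that selects poly(A) RNA, so transcripts without a tail are not its target. The part of this step in the levels below was not tested. The name replication-dependent also covers the cluster genes only loosely, since the rule takes in testis-type genes (Hist1h1t, Hist1h2aa, Hist1h2ba) and the pseudogenes.

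The cluster genes were low and the variants were high. The 67 cluster genes together held 302.7 TPM, or 0.0303% of the library's summed TPM. The 7 variants held 2242 TPM, which is 7.41-fold more. The cluster genes had a median of 1.26 TPM, the variants one of 162 TPM, and all 20873 protein-coding genes one of 2.42 TPM. In all, 38 of 67 cluster genes (56.7%) reached 1 TPM, beside 55.9% of protein-coding genes. That share is near the background. At 5 TPM the share was 12 of 67 cluster genes (17.9%), below the 42.4% of protein-coding genes. All 7 variants were above 12.5 TPM, the median of the protein-coding genes that reached 1 TPM. Of the cluster genes, 3 were above it.

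A few genes carried much of the cluster total. Hist1h1c stood at 76.0 TPM, Hist1h2bc at 67.7 TPM and Hist1h2al at 20.0 TPM, and no other cluster gene exceeded 10 TPM. Hist1h1c and Hist1h2bc alone made up 47.5% of the total, and without them the cluster genes summed to 159 TPM, 14.1-fold below the variants. Another 9 cluster genes lay between 5 and 10 TPM, 26 between 1 and 5 TPM, and 22 above 0 and under 1 TPM. The other 7 of 67 were listed at 0, beside 4230 of 20873 protein-coding genes. The members nearest to 1 TPM were Hist1h2ao at 1.08, Hist1h2bp at 1.11 and Hist1h2bb at 1.13 TPM above it, and Hist1h2aj at 0.965, Hist1h2ac at 0.838 and Hist1h2bn at 0.808 TPM below it. The levels show no gap there. The ranges of the 2 kinds overlapped in 1 gene, as Hist1h1c exceeded the lowest variant, H2afx at 70.2 TPM.

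**Figure D1:**
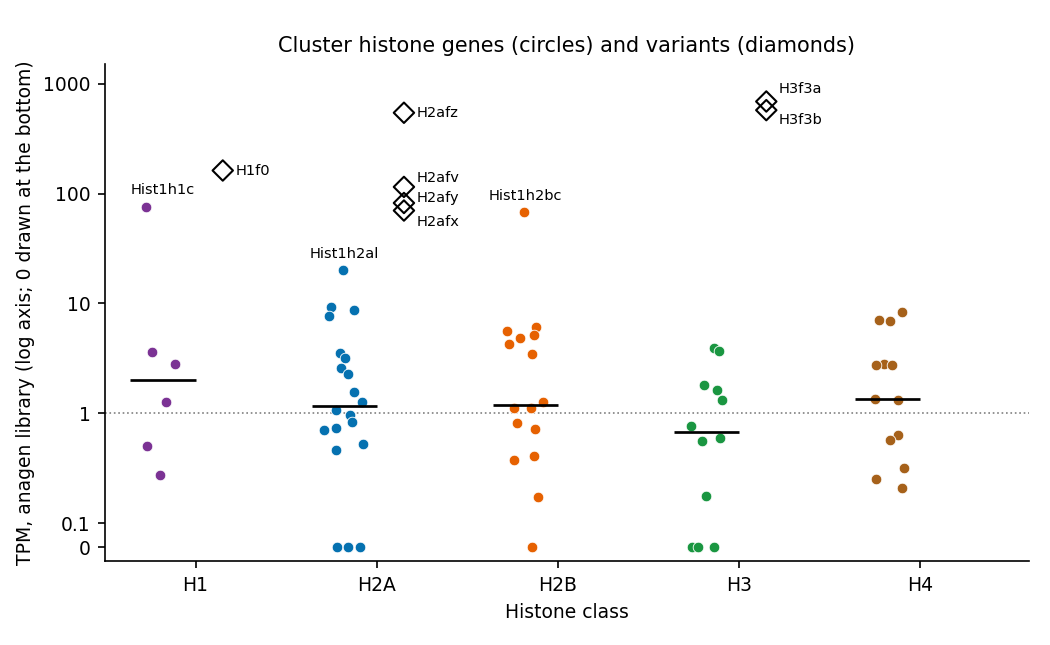
TPM in the anagen library on a log axis for each of the 67 cluster genes (circles, with the class median as a bar) and the 7 variants (diamonds), by histone class. Hist1h1c at 76.0 TPM is the cluster gene that lies among the variants, which start at 70.2 TPM, and the 7 genes listed at 0 are drawn on the bottom line.

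The linker histones were led by the variant. H1f0, the linker variant of resting and differentiating cells (ENSMUSG00000096210, chr15:79028212-79030504, GRCm38), stood at 162 TPM, 1.93-fold above the 6 cluster H1 genes together, which summed to 84.4 TPM. Within the cluster, Hist1h1c, the gene of subtype H1.2 (ENSMUSG00000036181, chr13:23738807-23739531), held 90.04% of the H1 total. Hist1h1e followed at 3.58 TPM, 21.2-fold lower, then Hist1h1d at 2.80 TPM and Hist1h1b at 1.25 TPM. Hist1h1a stood at 0.498 TPM and the testis H1 gene Hist1h1t at 0.272 TPM. The H1 level in this library was thus mostly from 1 gene of the cluster and 1 variant.

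The 130 bases before the starts of 3 H1 genes are shown because their levels differ widely while their sequences share the CCAAT box. Sequences are RefSeq's, of build GRCm38.p6, read 5′ to 3′ on the strand of the gene. Capitals mark matches on either strand to the TATA box TATAAA, the CCAAT box CCAAT, the octamer ATTTGCAT and the H1 box AAACACA. The windows are chr13:23738677-23738806 (plus strand), chr13:23622559-23622688 (minus strand) and chr13:23763538-23763667 (plus strand).
Hist1h1c: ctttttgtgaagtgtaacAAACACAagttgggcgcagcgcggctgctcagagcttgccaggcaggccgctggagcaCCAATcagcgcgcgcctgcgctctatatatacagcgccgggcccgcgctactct
Hist1h1e: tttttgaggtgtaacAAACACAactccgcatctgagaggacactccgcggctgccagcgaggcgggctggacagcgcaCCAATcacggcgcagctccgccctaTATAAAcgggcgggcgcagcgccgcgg
Hist1h1a: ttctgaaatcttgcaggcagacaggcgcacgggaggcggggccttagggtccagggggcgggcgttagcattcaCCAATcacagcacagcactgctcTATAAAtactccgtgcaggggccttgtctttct
Hist1h1c, at 76.0 TPM, and Hist1h1e, at 3.58 TPM, both hold the H1 box and the CCAAT box. Hist1h1a, at 0.498 TPM, holds the CCAAT box and TATAAA in this window without an AAACACA match. Over the whole RefSeq window (250 bases before to 50 after a start), 5 of 6 cluster H1 genes had the H1 box, Hist1h1t at 0.272 TPM among them, beside 7.14% of 27025 genes with a window.

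Among H2A genes, the H2A.Z pair stood far above the cluster. H2afz, which encodes the H2A.Z protein of promoters and enhancers (ENSMUSG00000037894, chr3:137864487-137866922), stood at 545 TPM. H2afv, which encodes the second H2A.Z form, stood at 115 TPM, 4.74-fold lower. Together they held 660.4 TPM, 10.1-fold above all 20 cluster H2A genes, which summed to 65.5 TPM. H2afy, the gene of macroH2A, a large variant of silent chromatin, stood at 82.2 TPM. H2afx, whose protein is phosphorylated around DNA breaks, stood at 70.2 TPM, 1.07-fold above the cluster H2A sum.

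The cluster H2A genes were led by a pseudogene. Hist1h2al, listed without a symbol in the deposited table and typed in RefSeq as the transcribed pseudogene H2af-ps2, stood at 20.0 TPM. It lies at chr13:51200084-51203066, outside the cluster. Without it, the H2A sum was 45.5 TPM. Hist1h2ap stood at 9.37, Hist2h2aa1 at 8.74 and Hist3h2a at 7.67 TPM. The next were Hist1h2ah at 3.52, Hist1h2ae at 3.19, Hist1h2ag at 2.60, Hist1h2aa at 2.26, Hist1h2ai at 1.56, Hist1h2ak at 1.26 and Hist1h2ao at 1.08 TPM. Hist1h2aa is the testis H2A gene and overlaps the long noncoding gene Gm33516, so its reads may belong to either. Hist1h2ad, Hist2h2aa2 and Hist2h2ab were listed at 0. In all, 11 of 20 (55%) reached 1 TPM, near the 55.9% of protein-coding genes.

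The H2B genes had no variant among the members, and 1 gene dominated. Hist1h2bc (ENSMUSG00000018102, chr13:23684199-23692480) at 67.7 TPM held 65.7% of the cluster H2B sum of 103 TPM and was 11.1-fold above the next, Hist1h2bk at 6.13 TPM. Hist1h2bj stood at 5.59, Hist1h2bg at 5.12, Hist3h2ba at 4.85, Hist1h2bl at 4.26 and Hist1h2bq at 3.44 TPM. Hist2h2be at 1.26, Hist1h2bb at 1.13 and Hist1h2bp at 1.11 TPM were just above the 1 TPM line. Of 16 H2B genes, 10 (62.5%) reached it, beside 55.9% of protein-coding genes. Hist1h2br was at 0.173 TPM and the testis gene Hist1h2ba was listed at 0.

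The contrast between variant and cluster was widest for H3. H3f3a (ENSMUSG00000060743, chr1:180802560-180813605) stood at 691 TPM and H3f3b (ENSMUSG00000016559, chr11:116021961-116026039) at 576 TPM. Both encode the same H3 variant, which is laid down at active genes outside replication, and they ranked 96th and 119th of 20873 protein-coding genes. Their 1266 TPM was 87.3-fold above the 12 cluster H3 genes, which summed to 14.5 TPM, the lowest sum of any class. Hist1h3b at 3.93 and Hist1h3i at 3.73 TPM were the highest cluster H3 genes. Hist1h3c at 1.80, Hist2h3c2 at 1.62 and Hist1h3g at 1.32 TPM were the others above 1 TPM. That made 5 of 12 (41.7%), beside 55.9% of protein-coding genes. Hist1h3h, Hist2h3b and Hist2h3c1 were listed at 0.

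H4 has no variant among the members, so its values come from cluster genes alone. The 13 genes summed to 35.3 TPM, and 8 (61.5%) reached 1 TPM, beside 55.9% of protein-coding genes. Hist1h4i stood at 8.31, Hist1h4n at 7.11, Hist1h4m at 6.93 and Hist1h4h at 2.83 TPM. Hist1h4k at 2.74, Hist1h4d at 2.72, Hist1h4b at 1.35 and Hist1h4a at 1.33 TPM followed. Hist4h4, alone on chromosome 6, and Hist2h4 were lowest at 0.252 and 0.209 TPM. All H4 genes encode the same protein or nearly so, and none was at 0. The nucleosome holds the core histones in equal numbers. The summed RNA of the cluster genes was 103 TPM for H2B, 65.5 TPM for H2A, 35.3 TPM for H4 and 14.5 TPM for H3. Without the leading gene of each, H2B summed to 35.4 TPM and H2A to 45.5 TPM. These sums leave out the variants, which held 1266 TPM for H3 and 813 TPM for H2A, and RNA levels do not measure protein.

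**Figure D2:**
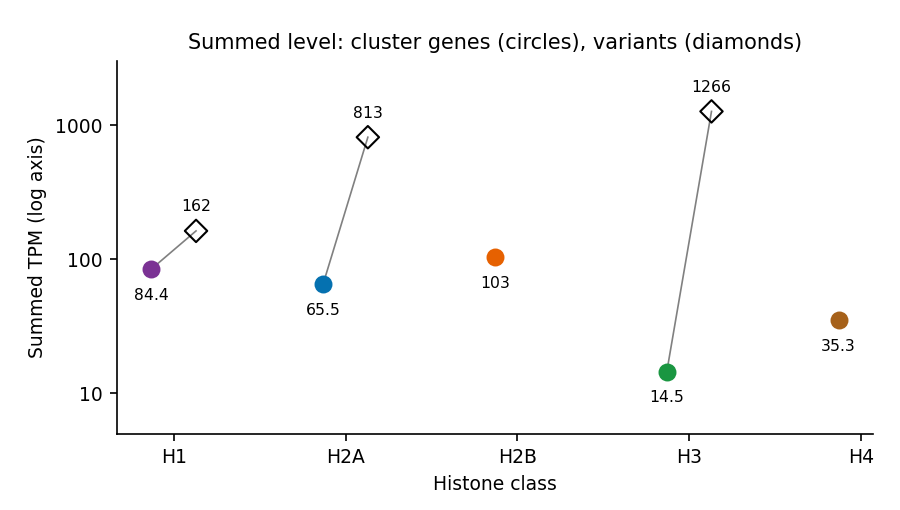
Summed TPM by histone class on a log axis, for the cluster genes (circles) and, where the class has any among the members, the variants (diamonds, joined by a line). H3 shows the widest span, from 14.5 to 1266 TPM, and H1 the narrowest, from 84.4 to 162 TPM.

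The promoters of the highest cluster H3 gene, the highest cluster H4 gene and H3f3a are shown to compare classes and kinds. The windows are chr13:23752215-23752344 (plus strand), chr13:22041363-22041492 (minus strand) and chr1:180813606-180813735 (minus strand), each of 130 bases before the start, with capitals as above.
Hist1h3b: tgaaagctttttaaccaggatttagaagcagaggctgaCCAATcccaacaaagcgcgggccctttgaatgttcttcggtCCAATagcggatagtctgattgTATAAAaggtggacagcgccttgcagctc
Hist1h4i: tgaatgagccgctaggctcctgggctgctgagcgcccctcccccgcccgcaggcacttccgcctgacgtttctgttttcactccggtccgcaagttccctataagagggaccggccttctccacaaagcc
H3f3a: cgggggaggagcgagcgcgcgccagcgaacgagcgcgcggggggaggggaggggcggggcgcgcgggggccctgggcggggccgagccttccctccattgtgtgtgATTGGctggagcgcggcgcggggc
Hist1h3b carries 2 CCAAT boxes and TATAAA, Hist1h4i has none of the 4 motifs in these bases, and H3f3a is rich in G and C with 1 CCAAT box on the other strand. Over the whole windows, CCAAT stood in all 6 H1, 18 H2A, 13 H2B and 10 H3 cluster genes with a window but in 3 of 12 H4 genes, beside 37.9% of all genes. TATAAA stood in 35 of 59 cluster genes (59.3%), among them 8 of 12 H4 genes, Hist1h4i included, and 4 of 10 H3 genes. It stood in 1 of 6 variants, H3f3b, and in 14.2% of all genes. A member with several annotated starts was given 1 window, that of lowest coordinate. For H3f3b, on the minus strand, that window (chr11:116024455-116024754) lies inside the gene's span (chr11:116021961-116026039), so its match is not from the outermost start. The window of Hist1h2be (chr13:23585921-23586220, minus strand) also lies inside its gene's span. The octamer, the classic element of H2B promoters, stood in 7 of 18 H2A and 5 of 13 H2B genes and in no H1, H3 or H4 cluster gene, beside 1.75% of all genes. Neighbouring H2A and H2B genes share bases of their windows, so these counts are not independent. Such windows can also run past the neighbour's start, and a match need not lie before a start. The windows of Hist1h2ah, Hist1h2bk, Hist1h2ad and Hist1h2bf all count as holding TATAAA, yet none lies between the starts of either pair. G and C made up a median of 45.3% of the cluster windows, 72.7% of the variant windows and 52.7% of all windows.

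Over all cluster genes with a window, each motif had a similar share above and below 1 TPM. TATAAA stood in 21 of 35 genes at 1 TPM or more (60.0%) and in 14 of 24 below it (58.3%). CCAAT stood in 29 of 35 and 21 of 24, and the octamer in 7 of 35 and 5 of 24. The median level was 1.26 TPM with TATAAA and 1.34 TPM without. Single classes went opposite ways, on few genes each. Medians with and without TATAAA were 2.73 TPM (8 genes) and 0.834 TPM (4) for H4, and 2.16 TPM (4) and 1.04 TPM (6) for H3. They were 1.12 TPM (8) and 3.44 TPM (5) for H2B, and 0.838 TPM (11) and 1.56 TPM (7) for H2A. For H1 they were 2.03 TPM (4) and 38.1 TPM (2). The H4 genes with TATAAA include Hist1h4m and Hist1h4n, whose windows share a run of 285 bases. Hist1h2bc and Hist1h2al, the cluster genes next in level to Hist1h1c, are among the 8 with no window and so are not in these counts. These are exact letter matches on either strand. They show no site, and a window without a match says nothing of a factor.

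By position, most of the summed level lay in the Hist1 cluster on chromosome 13. Its 53 genes held 257 TPM, or 84.9% of the total over the 67 genes, and Hist1h2al, named after this cluster but outside it, added 20.0 TPM. The 9 Hist2 genes on chromosome 3 (chr3:96219885-96269155) held 12.5 TPM, 3 of them (33.3%) at 1 TPM or more and 4 at 0. The 3 Hist3 genes on chromosome 11 (chr11:58948911-58955192) held 12.9 TPM. The Hist1 cluster splits at its widest gap into a block of 23 genes (chr13:21715711-22043658) and one of 30 genes (chr13:23531044-23934913). In the first block 17 of 23 genes (73.9%) reached 1 TPM, the median was 2.60 TPM and the highest value 9.37 TPM. In the second, 15 of 30 (50%) did, with a median of 0.983 TPM, beside 55.9% of protein-coding genes. But the second block holds Hist1h2bc and Hist1h1c and so summed to 184 TPM against 73.02 TPM. The genes beside these were not high: Hist1h2ac, Hist1h1t and Hist1h4c, which lie next to Hist1h2bc or between it and Hist1h1c, stood at 0.838, 0.272 and 0.315 TPM.

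**Figure D3:**
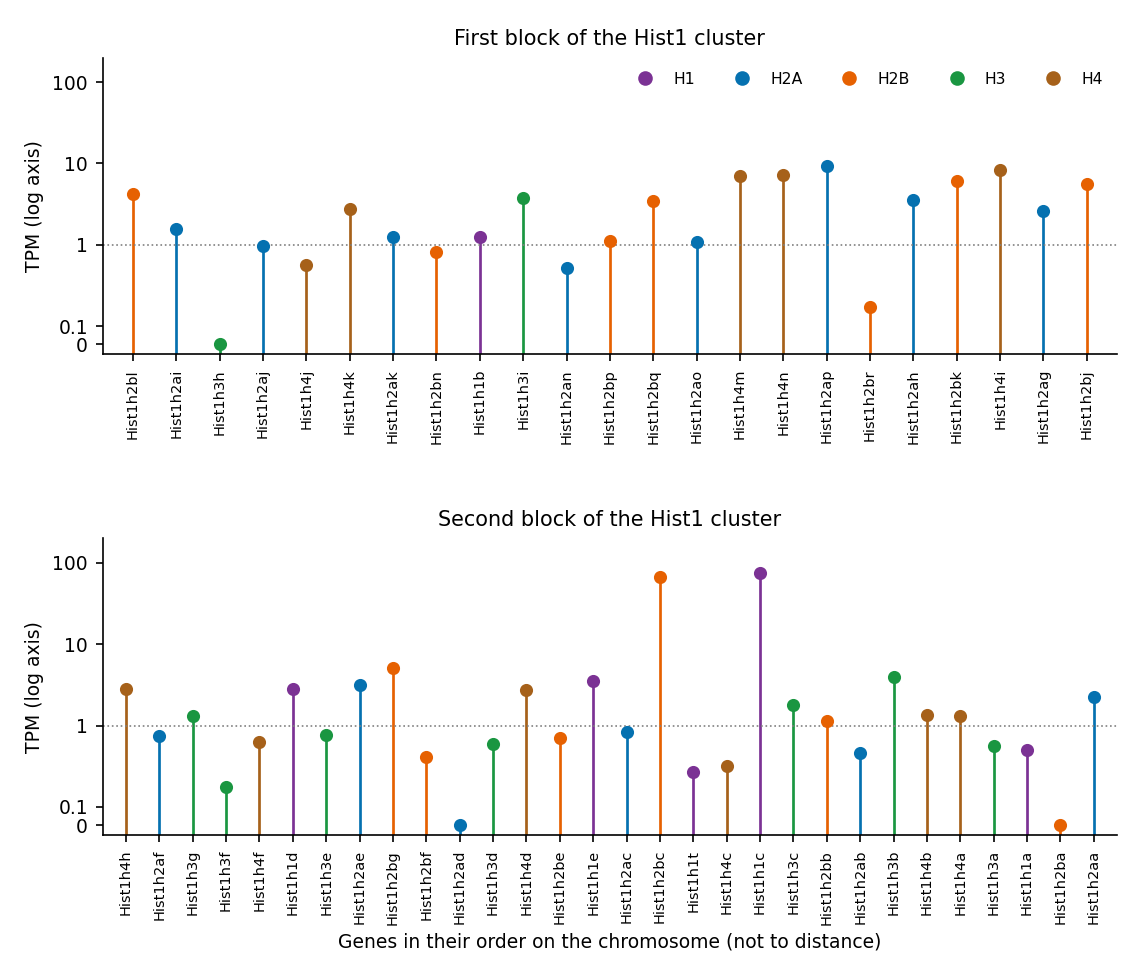
TPM on a log axis for the genes of the Hist1 cluster in their order on the chromosome, not to distance, with 23 genes in the first block and 30 in the second, coloured by class. Hist1h2bc and Hist1h1c stand out in the second block at 67.7 and 76.0 TPM, while no gene of the first block exceeds 9.37 TPM.

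Many H2A and H2B genes lie side by side with a short shared promoter. There were 13 neighbouring pairs with 163 to 280 bases between their annotated ends, and in the 10 with both strands in the promoter table the genes point away from each other. The pairs Hist1h2ao/Hist1h2bq and Hist1h2ap/Hist1h2br are copies of each other by their windows, so they were added up: the H2A genes then held 10.4 TPM and the H2B genes 3.61 TPM, 2.89-fold less. As listed singly, H2B was 3.19-fold above H2A in the former pair and H2A 54.3-fold above H2B in the latter. Of the other 11 pairs, the H2B gene was higher in 8 and the H2A gene in 3. Both genes reached 1 TPM in 4 of these 11 pairs, and there the H2B gene was 1.61-fold to 2.73-fold higher. Hist1h2bk at 6.13 TPM was 1.74-fold above Hist1h2ah at 3.52 TPM, and Hist1h2bg at 5.12 TPM was 1.61-fold above Hist1h2ae at 3.19 TPM. Some pairs were far apart in level. Hist1h2bc was 80.8-fold above its neighbour Hist1h2ac. Hist3h2a, whose span overlaps the gene Trim17 at 0.184 TPM, was 20.5-fold above the pseudogene Hist3h2bb-ps.

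The bases between the starts of a pair with both genes detected and of the pair with neither at 1 TPM are shown, on the plus strand, where the first gene named is read to the left and the second to the right. They cover chr13:22035644-22035820 and chr13:23574208-23574380.
Hist1h2ah/Hist1h2bk: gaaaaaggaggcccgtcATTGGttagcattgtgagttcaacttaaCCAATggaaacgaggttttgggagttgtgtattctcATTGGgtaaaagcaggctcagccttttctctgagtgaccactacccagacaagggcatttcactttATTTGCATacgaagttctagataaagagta
Hist1h2bf/Hist1h2ad: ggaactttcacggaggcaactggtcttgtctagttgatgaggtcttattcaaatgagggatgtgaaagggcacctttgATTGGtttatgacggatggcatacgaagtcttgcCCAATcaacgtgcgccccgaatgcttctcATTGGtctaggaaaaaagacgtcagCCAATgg
The first, of 177 bases, lies between genes at 3.52 and 6.13 TPM and holds CCAAT boxes on both strands and the octamer near the start of Hist1h2bk. The second, of 173 bases, lies between Hist1h2bf at 0.410 TPM and Hist1h2ad, listed at 0, and holds CCAAT boxes without an octamer match.

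**Figure D4:**
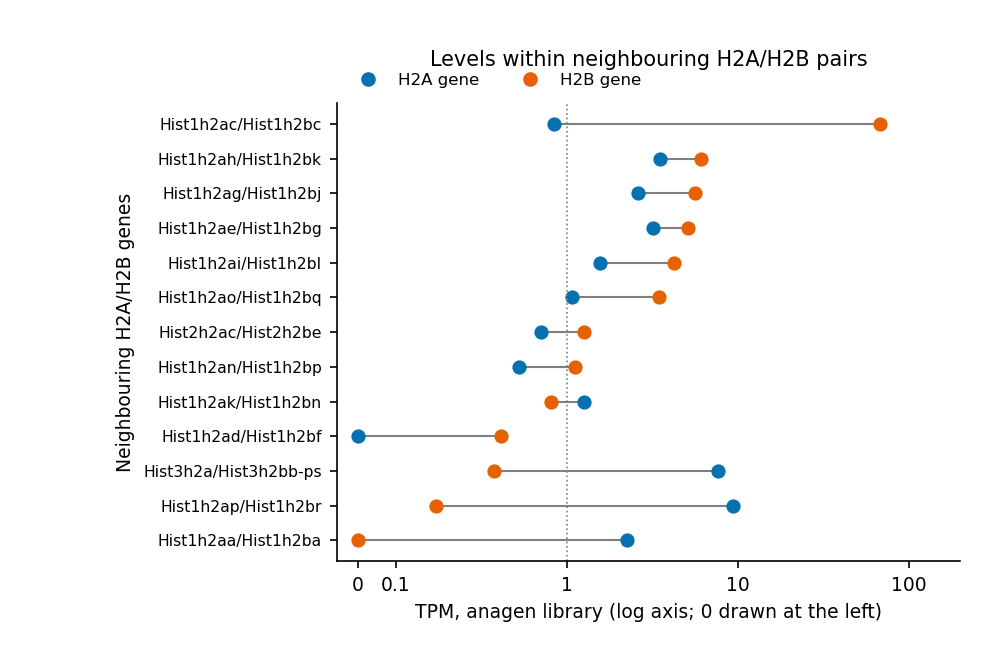
TPM on a log axis of the H2A gene and the H2B gene in each of the 13 neighbouring pairs, sorted by the H2B level. Apart from the copied pairs Hist1h2ao/Hist1h2bq and Hist1h2ap/Hist1h2br, the 4 pairs with both genes at 1 TPM or more are 1.61-fold to 2.73-fold apart, while Hist1h2ac and Hist1h2bc are 80.8-fold apart.

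Several cluster genes share near-identical windows around their starts. Transcript sequences were not compared here, so how far these genes share reads was not measured, and their single values are best read as uncertain. Among genes of the same class, 5 pairs shared an unbroken run of 200 or more bases in their windows. Hist1h2bq and Hist1h2br have all 300 bases in common and were listed at 3.44 and 0.173 TPM. Their shared 130 bases before the start, at chr13:21810200-21810329 (minus strand) and chr13:21833613-21833742 (plus strand), are the same letter for letter.
Hist1h2bq: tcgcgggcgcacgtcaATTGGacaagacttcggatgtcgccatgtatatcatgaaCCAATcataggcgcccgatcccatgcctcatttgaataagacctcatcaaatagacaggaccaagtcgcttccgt
Hist1h2br: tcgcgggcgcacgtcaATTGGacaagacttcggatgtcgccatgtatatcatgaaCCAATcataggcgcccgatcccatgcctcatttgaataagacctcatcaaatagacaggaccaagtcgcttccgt
Hist2h2aa1 and Hist2h2aa2 share a run of 219 bases, with 8.74 TPM listed for the former and 0 for the latter. Hist2h3c2 and Hist2h3c1 share 231 bases, with 1.62 TPM and 0. Hist1h2ap and Hist1h2ao share 200 bases, at 9.37 and 1.08 TPM, and Hist1h4n and Hist1h4m share 285 bases, at 7.11 and 6.93 TPM. The tool named in the submitters' processing notes, RSEM, divides reads that fit several genes. A sum over a pair is less open to that division but not free of it, as TPM divides each gene's reads by its own length. The RefSeq span was 452 bases for Hist1h2ap and 552 bases for Hist1h2ao. The sums were 3.61 TPM for Hist1h2bq with Hist1h2br, 8.74 TPM for the Hist2h2aa pair, 1.62 TPM for the Hist2h3c pair, 10.4 TPM for Hist1h2ap with Hist1h2ao and 14.04 TPM for Hist1h4n with Hist1h4m. Coding sequences within a class are known to be alike well beyond these pairs.

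The annotated span did not sort the genes by median level. RefSeq gives 7 cluster genes a span over 1000 bases, with a median of 1.26 TPM and 5 (71.4%) at 1 TPM or more. The other 60 had a median of 1.26 TPM as well, with 33 (55%) at 1 TPM or more, beside 55.9% of protein-coding genes. By sum, the 7 held 94.4 TPM, 31.2% of the cluster total, and the other 60 held 208 TPM. Of the 7, Hist1h2bc at 67.7 TPM and Hist1h2al at 20.0 TPM were high, while Hist1h2bq at 3.44, Hist2h2be at 1.26, Hist1h2bp at 1.11, Hist1h2be at 0.712 and Hist1h2br at 0.173 TPM were not. Hist1h1c, the highest of all, has a span of 725 bases.

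The genes that make histone transcripts and deliver the proteins were detected at higher levels than most cluster genes. Of 23 measured genes for transcription and end processing of histone RNA, 22 reached 1 TPM (95.7%, beside 55.9% of protein-coding genes), and the median was 12.0 TPM. Slbp, which binds the stem-loop, led at 61.2 TPM, followed by the cap-binding gene Ncbp2 at 50.4, the cleavage scaffold gene Sympk at 46.9 and Srrt at 43.8 TPM. Several other factors that act on histone genes were lower than Slbp. Npat, which switches on the clusters at S phase entry, stood at 4.72 TPM, Casp8ap2, of the histone locus body, at 4.997 TPM, and the U7 particle genes Lsm10 and Lsm11 at 10.7 and 2.31 TPM. Zfp473, which joins the U7 particle to the processing complex, was lowest at 0.535 TPM.

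All 13 measured chaperones of replication passed 1 TPM, beside 55.9% of protein-coding genes, and their median was 30.8 TPM. Ssrp1, a subunit of the FACT complex, led at 124 TPM, followed by Rbbp4 at 77.2, Tonsl at 63.9 and Nasp, which stores H3 and H4, at 57.9 TPM. Chaf1a, of the complex that places H3 and H4 behind the fork, stood at 14.2 TPM, and Asf1b, which hands them over, at 13.9 TPM. Asf1a and Mms22l were lowest at 12.5 and 8.08 TPM. Of the chaperones outside replication, all 17 passed 1 TPM, and their median was 26.5 TPM. Npm1 at 292, Set at 220.4, Nap1l1 at 151.5 and Dek at 111 TPM were highest. Hira and Daxx, which each place the variant encoded by H3f3a and H3f3b, stood at 18.8 and 26.2 TPM, and Cabin1 and Ubn2 were lowest at 7.77 and 4.53 TPM.

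Genes of DNA synthesis in S phase were detected throughout. All 25 listed genes passed 5 TPM, and their median was 31.3 TPM, led by Tk1 at 95.3, Pcna at 75.3, Mcm6 at 63.3 and Gins2 at 56.8 TPM, with Ccne1 at 7.43 and Cdc6 at 6.06 TPM lowest. Of the cluster histone genes, 10 of 67 were above Cdc6, the lowest gene of that list. At the nearby line of 5 TPM, the share was 17.9% of cluster genes and 42.4% of protein-coding genes.

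**Figure D5:**
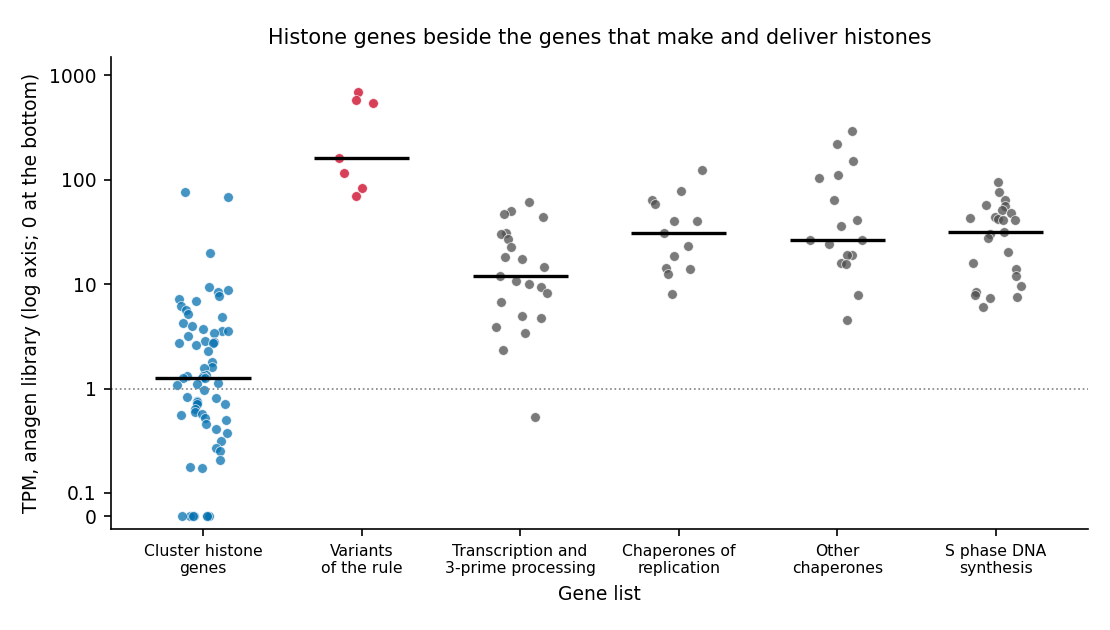
TPM on a log axis for the 67 cluster genes, the 7 variants and 4 lists of histone supply and S phase genes, with the median of each as a bar. The cluster genes have a median of 1.26 TPM, the supply and S phase lists medians from 12.0 to 31.3 TPM, and the variants one of 162 TPM.

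Of 13 further histone variants outside the rule, 6 (46.2%) reached 1 TPM, beside 55.9% of protein-coding genes, and 5 were listed at 0. H3f3c, a further H3 gene (ENSMUSG00000082029), stood at 222 TPM, and reads may be divided between it and H3f3a or H3f3b. Cenpa, the H3 variant of centromeres, stood at 66.7 TPM, H1fx at 33.6 TPM and H2afj at 24.2 TPM. The testis gene H1fnt and the oocyte gene H1foo were lowest of the H1 type, at 0.0151 TPM and 0.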

How the data were processed

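RNA-seq of 1 anagen library was analysed. Per the file headers, the deposited values are TPM. Per the submitters' processing notes, the authors used Bowtie2 2.2.9, RSEM 1.2.30 and the mm10 build, another name of GRCm38. Annotation and filters: not given in the sources used here. The column numbered 1 was taken as the anagen sample, whose title alone carries that number, and 11 other columns of per-sample values were not used. Each gene ID was counted once, and 32915 IDs were matched by symbol or synonym to RefSeq GRCm38.p6 for gene type, position and promoters. Detection was set at 1 TPM. TPM keeps no depth, so no interval or floor could be set. Members and gene lists were chosen with earlier results of these data known. The genes named are all variants, all cluster genes at 1 TPM or more, those nearest 1 TPM and some dedicated factors. The highest 4 and lowest 2 of each class and list are named too. In the list of further variants, where 5 genes were at 0, the lowest 2 named are those of the H1 type. Of the 93 listed names outside the rule, 2 (Mizf and Codanin1) found no row under the name used. Neighbouring pairs lay within 300 bases. No test was run. The summaries were tested on simulated data. Python 3.11.15, pandas 2.3.3, numpy 2.4.6, scipy 1.17.1 and matplotlib 3.10.9 were used.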

Additional observations from a re-analysis of the deposited data

How the results depend on the processing

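No paired analysis was possible because only 1 library was analysed, and none could be left out. The share of cluster genes detected was 17.9% at 5 TPM, 74.6% at 0.5 TPM and 57.8% among protein-coding genes. Rescaling without mitochondrial genes and the 50 highest raised every level 1.80-fold: the cluster total to 544 TPM, its median to 2.27 TPM, the variants' median to 292 TPM, H1, H2A, H2B, H3 and H4 to 152, 118, 185, 26.1 and 63.5 TPM, Hist1, Hist2, Hist3 and Hist4 to 498, 22.5, 23.2 and 0.454 TPM, and the supply genes' median of 22.8 TPM to 41.0 TPM. With members at 1 TPM or more alone, the total was 291 TPM, the median 3.31 TPM, the classes 83.6, 61.2, 100.6, 12.4 and 33.3 TPM in the same order, and the supply genes' median 23.0 TPM. The ratio of cluster to variant totals, 0.135, was then 0.130. It was 0.101 without Hist1h1c, 0.195 without H3f3a, and 0.0129 and 0.0064 as a ratio of geometric means of TPM plus 1 and plus 0.1. Chosen after seeing the data, leaving out Hist1h1c and Hist1h2bc gave a ratio of 0.0709 and a total of 159 TPM, leaving out pseudogenes 281 TPM and leaving out H1 218 TPM. The genes named Hist1 held 277 TPM, or 257 TPM without Hist1h2al. The cluster genes stayed below the variants in each of these settings that compares them. Rescaling multiplies both kinds alike, and leaving out cluster genes only lowers their total, so those settings could not reverse the order. Unknown depth limits values under 1 TPM most.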

Other observations

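The H2A.L genes, short, mostly X-linked histone genes known from late sperm cells, were not among the members. Of 13 such rows, 4 reached 1 TPM, beside 55.9% of protein-coding genes, and 9 were listed at 0. H2al1g stood at 12.4 TPM, H2al1a at 9.38 TPM, H2al1m at 3.05 TPM and H2al1b at 2.61 TPM. The first 2 exceeded all cluster H2A genes except Hist1h2al. These rows were chosen after their values were seen, and they are multicopy genes, so reads from elsewhere could be counted there, which was not tested.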
